A study of Mus musculus with 2 samples.

Results

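The B-cell receptor signalling kinases and adaptors described here are 9 genes: the receptor chain genes Cd79a and Cd79b, the kinase genes Syk, Lyn, Blk and Btk, the adaptor genes Blnk and Pik3ap1, and the phospholipase gene Plcg2. They were taken by gene name from the non-control spots of both arrays, which gave 12 probes of 41174 and 9 of the 17685 genes tested. Messenger RNA of B cells sorted from peripheral lymph nodes was compared between Ccr7 knock-out mice of the strain B6.129P2(C)-Ccr7tm1Rfor/J and wild-type C57BL/6J mice, with no age or treatment given and no culture before the RNA was isolated. The knock-out is a germline allele, so every cell of the animal carries it, and the strain name gives a donor background other than B6. RNA of 12 sorted samples, 6 of each genotype, was combined in pools of 3, and each of 2 dual-colour arrays held 1 knock-out and 1 wild-type pool. The knock-out pool carried Cy5 on array 1 and Cy3 on array 2, so n = 2 arrays throughout. The comparison asks how these B cells differ when the chemokine receptor Ccr7 is missing.

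The B-cell receptor is a membrane immunoglobulin paired with the signalling chains that Cd79a and Cd79b encode, whose cytoplasmic tails carry tyrosine motifs. After antigen binding, Src family kinases such as Lyn and Blk phosphorylate these motifs, Syk docks on them, and the adaptor Blnk gathers Btk and Plcg2, which starts the calcium and diacylglycerol signals. The adaptor encoded by Pik3ap1 (also known as BCAP) links the receptor to phosphoinositide 3-kinase.

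The arrays carried 60-base probes, placed by the files on mm8. Positions within exons or untranslated regions were not analysed here, but the Cd79a, Blk and middle Pik3ap1 probes cover 258, 1138 and 1132 bases of the genome, longer than the probe itself. The 5 sequences below are those of the Cd79a probe, as a receptor chain, and of the probes of Lyn, Blk and Pik3ap1 that were read at the normal scanner gain on both arrays, without the brightest Pik3ap1 probe. They are printed 5′ to 3′ as the files give them, with no part singled out in capitals.
Cd79a, chr7:24608094-24608351, plus strand: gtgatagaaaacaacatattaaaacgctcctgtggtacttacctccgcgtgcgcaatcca
Lyn (dimmer probe), chr4:3716905-3716964, plus strand: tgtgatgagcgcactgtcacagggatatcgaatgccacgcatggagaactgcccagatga
Blk, chr14:62332606-62333743, minus strand: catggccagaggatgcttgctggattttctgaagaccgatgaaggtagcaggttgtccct
Pik3ap1 (middle probe), chr19:41335299-41336430, minus strand: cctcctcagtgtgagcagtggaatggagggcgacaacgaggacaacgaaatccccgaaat
Pik3ap1 (dimmest probe), chr19:41355822-41355881, minus strand: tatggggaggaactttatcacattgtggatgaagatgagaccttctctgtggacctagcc
The other probes lie at chr11:106127556-106127615 (Cd79b), chr13:52660724-52660783 (Syk), chr4:3717973-3718032 (Lyn, brighter probe), chrX:129888872-129888931 (Btk), chr19:40982249-40982308 (Blnk), chr8:120521057-120521114 (Plcg2) and chr19:41326896-41326955 (Pik3ap1, brightest probe).

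Levels are given as normalised log2 intensity, and differences as log2 ratios, knock-out over wild-type. The scanner read each array at a high and a low gain, and spots too bright for the first carry a flag (IsLowPMTScaledUp) for a value scaled up from the second. Such a channel was present in 7 of the 9 genes here and in 1628 of all 17685 genes (9.21%). In Cd79b, Blnk and Plcg2 all 4 channels were scaled up. In Cd79a, Syk, the brighter Lyn probe and 9 of the 10 Btk spots 3 channels were, all but the knock-out channel on array 2. Blk, all 3 Pik3ap1 probes and the dimmer Lyn probe had none. Every probe of the 9 genes was well above background in both genotypes on both arrays, and no spot was saturated.

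Ccr7 itself was lower in the knock-out, with levels of 11.44 and 11.66 in knock-out pools against 12.55 and 12.40 in wild-type pools, but did not pass over all genes (log2 ratio -0.93 ± 0.15, SE, n = 2 arrays, limma adjusted p = 0.142). The files do not say whether its probe lies in the deleted part. All 9 B-cell markers tested, among them Ms4a1, had a scaled-up channel, and 0 of 10 T cell, 0 of 8 myeloid and 0 of 4 NK cell markers had one. Of the listed markers on the array, 10 of 10 T cell, 8 of 9 myeloid, 4 of 6 NK cell and 5 of 6 plasma cell markers were tested. The summed level of the B-cell markers was 785300 and 415700 in knock-out pools and 404300 and 783900 in wild-type pools, higher in the Cy5 pool each time. Their median log2 ratio was 0.09, and 0 passed the adjusted p of 0.05. Pax5, singled out after its values were seen, had the lowest mean, at -0.82 (limma adjusted p = 0.141). Its tested probe gave -0.79 and -0.86 on arrays 1 and 2, while its other probe had a mean of 0.01. The summed level of the T cell markers was 13590 and 16650 in knock-out pools and 14850 and 17790 in wild-type pools. Brightest in that list, and most of the sum, was Cd2 (mean level 13.55), followed by Cd8b1 (10.53). Cd3e, Cd4 and Cd3g had mean levels of 8.52, 7.01 and 6.80, so the sum mainly follows Cd2 and is no measure of the amount of T cells. The median log2 ratio of the T cell markers was -0.24. At an unadjusted p of 0.05 in limma, 4 of the 10 were lower in the knock-out, beside 5.97% of all genes. These were Thy1 at -0.78, Cd3d at -0.60, Il7r at -0.49 and Cd8a at -0.39, singled out after their values were seen. Il7r and Cd8a were dim, with mean levels of 6.77 and 6.91. Cd5 was at -0.36, Cd2 at -0.12 and Cd4 at -0.03, while Cd8b1 was at 0.18, Cd3e at 0.03 and Cd3g at 0.01. The dimmer Cd8b1 probe (mean level 8.13) went the other way, with -1.78 and -1.15 on arrays 1 and 2 and a mean of -1.47. The NK cell sum was 814.4 and 620.4 in knock-out pools and 827.8 and 708.5 in wild-type pools, led by Prf1 (7.92) and Klrd1 (7.86). The myeloid sum was 9811 and 6477 in knock-out pools and 5323 and 9686 in wild-type pools, led by Lyz2 (12.44) and Adgre1 (9.64). Like the B-cell sum, it was higher in the Cy5 pool each time, but Lyz2 makes up most of it. Of the 8 myeloid markers, 2 were higher in the knock-out on both arrays, 1 lower on both and 5 opposite. The one lower on both was Adgre1, at -0.29 and -1.14. Of the plasma cell markers, Jchain rose in the knock-out (log2 ratio 1.81, limma adjusted p = 0.0177), and its list summed to 47670 and 45830 in knock-out pools and 42410 and 40220 in wild-type pools. Its brightest members were Mzb1 (15.25), which makes up most of the sum, and Irf4 (11.60), so that sum is no measure of the amount of plasma cells. The list's median log2 ratio was -0.21, with Sdc1 at -0.64, Prdm1 at -0.25 and Irf4 at -0.21. Whether these cells take part in the ratios below was not tested, and in bulk RNA fewer cells of a type and less RNA per cell cannot be told apart.

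None of the 9 genes differed between the genotypes past an adjusted p of 0.05, where 0.102% of all genes tested did (18 of 17685), and none passed an unadjusted p of 0.05, which 9.12% did. Their mean log2 ratios ran from -0.25 (Btk) to 0.31 (Blnk), with limma adjusted p-values from 0.598 to 0.995. Blk, Pik3ap1 and Lyn were higher in the knock-out on both arrays, Syk and Btk lower on both, and Cd79a, Cd79b, Blnk and Plcg2 had opposite signs. These 4 are among the 7 genes with a scaled-up channel, and of all genes with one 53.6% had opposite signs. Over all genes 24.2% were higher on both, 30.0% lower on both and 45.8% opposite, so these counts are near those of genes at large. The median of the 9 genes was 0.08, beside -0.01 over all genes. By array it was 0.27 on array 1 and -0.06 on array 2, beside values of -0.00 and -0.02 over all genes.

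**Figure D1:**
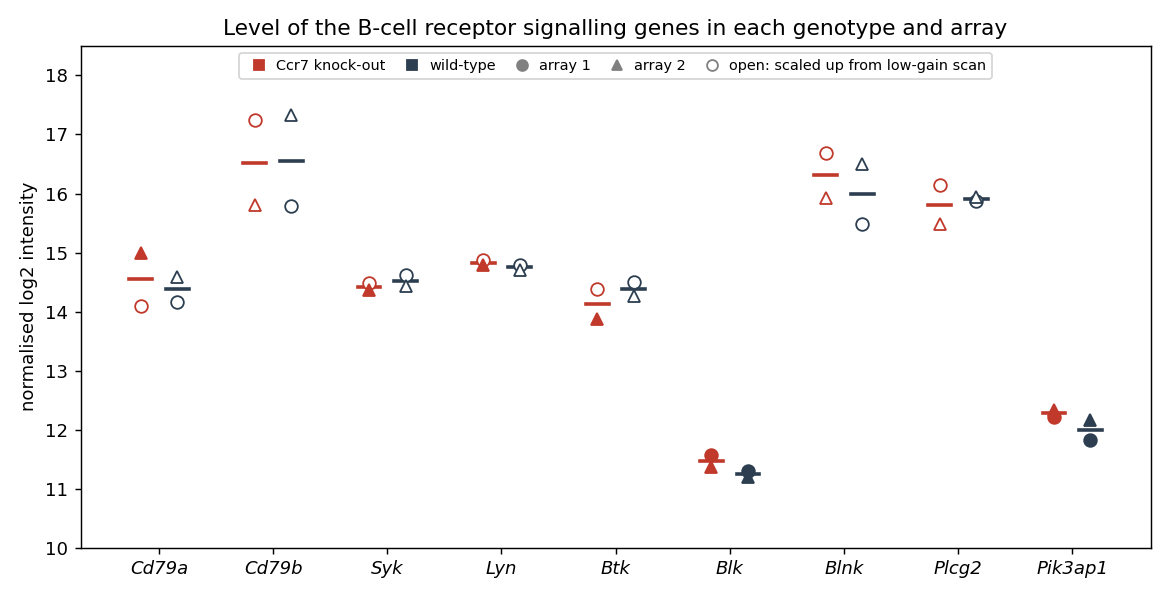
Normalised log2 intensity of the tested probe of each gene (vertical axis) in Ccr7 knock-out pools (red, left) and wild-type pools (dark, right). Circles are array 1, triangles array 2, bars the mean of both, and open symbols are low-gain, scaled-up channels. Levels compare within a gene only. Blk and Pik3ap1 have closed symbols throughout, and the pools of Cd79b and Blnk cross over between the arrays.

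The receptor chain genes gave no shared direction. Cd79a had levels of 14.09 and 15.00 in knock-out pools, against 14.16 and 14.59 in wild-type pools. The pools overlapped, the array ratios were -0.07 and 0.41, and their mean was 0.17 ± 0.16 (SE, n = 2 arrays; limma adjusted p = 0.859; 95% interval from -0.20 to 0.54). Its partner Cd79b had levels of 17.25 and 15.80 in knock-out pools, against 15.79 and 17.33 in wild-type pools. On each array the pool labelled with Cy5 was the brighter, whichever genotype it was. Before normalisation the Cd79b spot read 200255 in the knock-out and 50062 in the wild-type on array 1, and 31453 in the knock-out and 264301 in the wild-type on array 2. The ratios of 1.45 and -1.52 left a mean of -0.03 ± 0.57 (SE, n = 2 arrays; limma adjusted p = 0.995), and the 95% interval, from -1.37 to 1.30, excludes neither a doubling nor its reverse. Cd79b therefore has no measured direction here. Its probe lies 7.17 Mb from that of Ccr7 on chromosome 11, so an effect of the lost receptor and of donor sequence near Ccr7 cannot be told apart for this gene.

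The Src family kinase genes Lyn and Blk were slightly higher in knock-out pools on both arrays after loess, while with median centring or no within-array normalization their means fell below 0. So did the median of all genes, to -0.17 and -0.39. By array that median was 0.07 and -0.47 with median centring, and 0.11 and -0.95 with no within-array normalization. All 9 genes had opposite signs on the arrays in both settings, so a sign there does not set a gene apart. Lyn also had opposite signs by the scanner program's log ratio, in the authors' deposited table and with centring within flag classes, so its arrays disagreed in 5 of 14 settings. Several of the 14 change only the filter, prior or test and leave its ratios as they were. Lyn, which phosphorylates the receptor chains and also the inhibitory coreceptors, had levels of 14.87 and 14.79 in knock-out pools against 14.80 and 14.70 in wild-type pools by its brighter probe. The pools overlapped, and the ratios of 0.07 and 0.08 were nearly equal on the arrays, with a mean of 0.08 ± 0.13 (SE, n = 2 arrays; limma adjusted p = 0.954; 95% interval from -0.22 to 0.38). The dimmer Lyn probe, read at normal gain, gave larger ratios of 0.50 and 0.23. Its levels were 11.48 and 11.98 in knock-out pools against 10.98 and 11.75 in wild-type pools, and its adjusted p was 0.454 with every probe tested on its own in limma. The Lyn probes thus went the same way, with means of 0.08 and 0.36.

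Blk, a Src family kinase found mainly in B lineage cells, had levels of 11.58 and 11.36 in knock-out pools against 11.29 and 11.20 in wild-type pools. No channel was scaled up, and after normalisation both knock-out levels lay above both wild-type levels. Before it, the Blk spot on array 2 read 1478 in the knock-out and 2811 in the wild-type. With no within-array normalization its log2 ratio on that array was -0.94, beside a median of -0.95 over all genes. After loess the ratios of 0.29 and 0.16 gave a mean of 0.23 ± 0.13 (SE, n = 2 arrays; 1.17-fold), which did not pass (limma adjusted p = 0.684; 95% interval from -0.08 to 0.53).

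Syk and Btk were slightly lower in knock-out pools on both arrays after loess. With median centring or no within-array normalization their arrays had opposite signs, as for all 9 genes. Syk, the kinase that binds the phosphorylated receptor chains, had levels of 14.48 and 14.37 in knock-out pools against 14.61 and 14.43 in wild-type pools, and the pools overlapped. Its ratios were -0.14 and -0.06, with a mean of -0.10 ± 0.13 (SE, n = 2 arrays; limma adjusted p = 0.927; 95% interval from -0.40 to 0.20). Btk, the Tec family kinase that activates phospholipase, had levels of 14.38 and 13.88 in knock-out pools against 14.51 and 14.27 in wild-type pools, which overlapped. Its ratios were -0.12 and -0.38, and the mean was -0.25 ± 0.14 (SE, n = 2 arrays; 0.839-fold; limma adjusted p = 0.653; 95% interval from -0.57 to 0.07).

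The Btk probe was printed in 10 spots per array, which shows how closely an array repeats itself. The lowest, median and highest ratios of the 10 spots were -0.20, -0.12 and -0.08 on array 1, and -0.43, -0.39 and -0.32 on array 2. All 20 ratios were below 0, and the sets from the 2 arrays did not overlap. The SD over spots was 0.03 on each array, while the means of the arrays differed with an SD of 0.18. Spots of 1 array share the same labelled pools and are no replicates of the genotype. On array 2 the wild-type channel of 1 spot, at 18604, was not scaled up, and its ratio of -0.36 lay within the range of the other 9 spots, whose wild-type signal ran from 19974 to 28505.

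**Figure D2:**
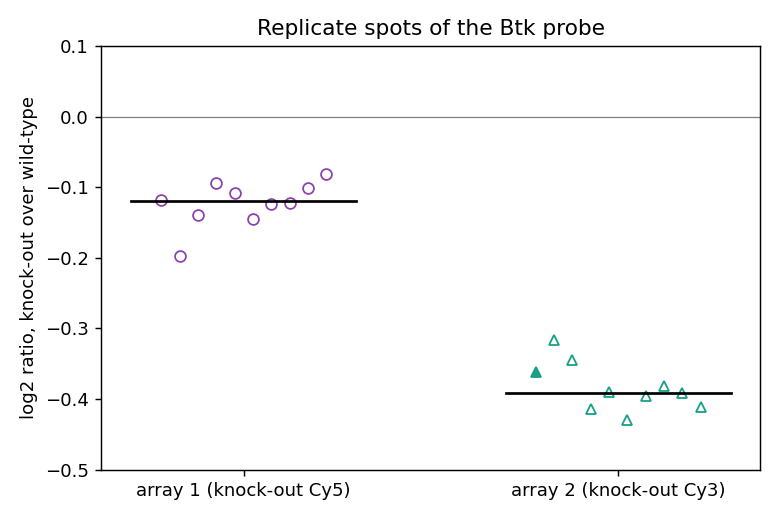
Log2 ratio, knock-out over wild-type (vertical axis), of the 10 spots of the Btk probe on array 1 (circles) and array 2 (triangles), with the median as a line. Open symbols have a scaled-up wild-type channel. The spots of array 1 lie between -0.20 and -0.08 and those of array 2 between -0.43 and -0.32, and the closed triangle lies among the open ones.

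Of the adaptors, Pik3ap1 was measured by 3 normal-gain probes and Blnk by a single probe with every channel scaled up. The brightest Pik3ap1 probe had levels of 12.22 and 12.34 in knock-out pools against 11.82 and 12.17 in wild-type pools. After normalisation both knock-out levels thus lay above both wild-type levels. Before it, this probe read 2775 in the knock-out and 5511 in the wild-type on array 2. Its ratios were 0.40 and 0.17, and the mean of 0.28 ± 0.13 (SE, n = 2 arrays; 1.22-fold) had the smallest adjusted p of the 9 genes, 0.598 in limma, with a 95% interval from -0.03 to 0.60. With median centring or no within-array normalization the mean was below 0, as was the median of all genes (-0.17 and -0.39). The middle probe gave 0.27 and 0.00 on the arrays, and the dimmest gave 0.17 and -0.09. The Pik3ap1 probes differed in size on array 2, where the dimmest had the opposite sign. Of the 5 normal-gain probes of Lyn, Blk and Pik3ap1, which share genes, 4 were higher in the knock-out on both arrays, the middle Pik3ap1 probe by only 0.00 on array 2. Over all genes 24.2% were higher on both, a share of genes and not of probes. With median centring or no within-array normalization, Blk and the brightest Pik3ap1 probe had opposite signs on the arrays, as all 9 genes had. The means over all 5 ran from 0.04 to 0.36.

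Blnk, the scaffold for Btk and Plcg2, had levels of 16.68 and 15.93 in knock-out pools against 15.48 and 16.51 in wild-type pools. As with Cd79b, the Cy5 pool was the brighter on each array. The ratios of 1.20 and -0.58 gave a mean of 0.31 ± 0.36 (SE, n = 2 arrays; limma adjusted p = 0.899; 95% interval from -0.52 to 1.15). This was the highest mean of the 9 genes, and its arrays had opposite signs.

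Plcg2, the phospholipase that makes diacylglycerol and inositol trisphosphate, had levels of 16.14 and 15.48 in knock-out pools, against 15.87 and 15.94 in wild-type pools. The wild-type pools lay between the knock-out pools. The ratios of 0.27 and -0.46 gave a mean of -0.09 ± 0.19 (SE, n = 2 arrays; limma adjusted p = 0.967; 95% interval from -0.53 to 0.34).

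**Figure D3:**
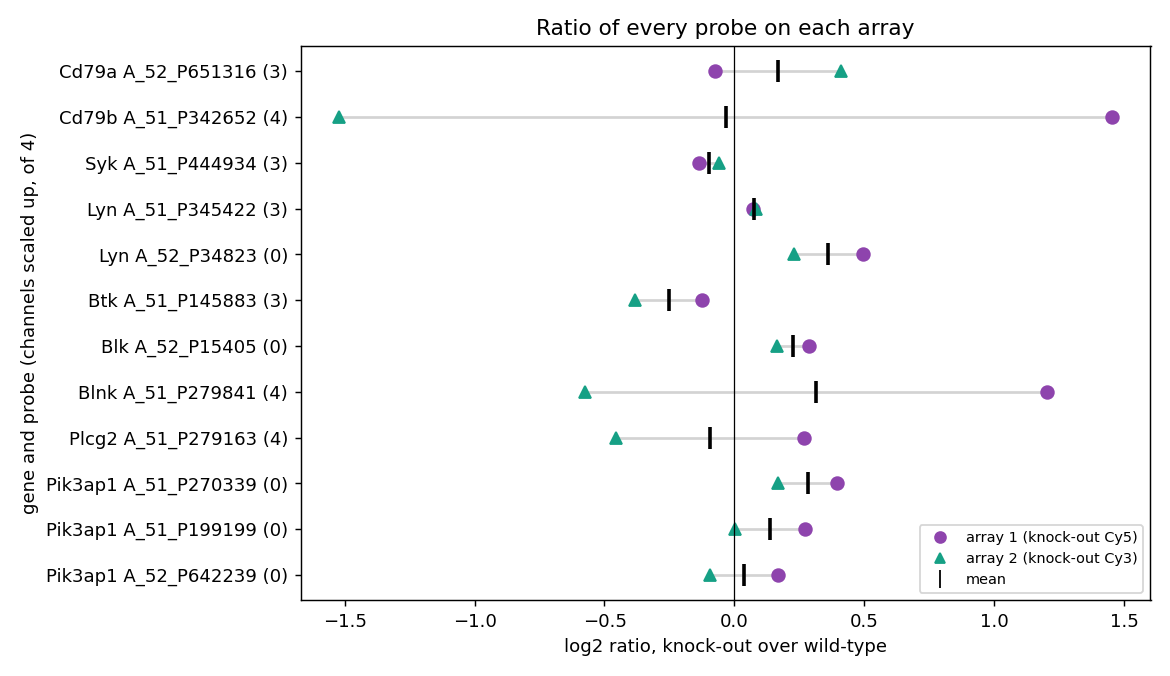
Log2 ratio, knock-out over wild-type (horizontal axis), of each of the 12 probes on array 1 (circles) and array 2 (triangles), with the mean as a bar. The number after each probe is how many of its 4 channels were low-gain and scaled up in at least 1 spot. Cd79b runs from -1.52 to 1.45 and Blnk from -0.58 to 1.20, while the 5 probes with 0 such channels stay between -0.09 and 0.50.

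Of the 9 genes, those with all 4 channels scaled up were higher in the Cy5 pool on both arrays, and those with 3 were not. Expressed by dye, the mean log2 ratio of Cy5 over Cy3 was 1.49 for Cd79b, 0.89 for Blnk and 0.36 for Plcg2, the genes scaled up in all 4 channels. It was between -0.24 (Cd79a) and 0.13 (Btk) in the genes with 3 such channels, among them -0.04 for Syk and -0.01 for Lyn, and 0.06 for Blk and 0.11 for Pik3ap1. Cd79b, Blnk and Plcg2 were positive on array 1 and negative on array 2, and among all 445 genes with 4 scaled-up channels 63.8% were, beside 24.9% of all genes. That share was 25.4% among the 716 genes flagged like Cd79a, Syk, Lyn and Btk. The median of the 445 genes was 0.41 on array 1 and -0.22 on array 2. Outside the 9 genes, Lyz2, with no scaled-up channel, also had 1.22 on array 1 and -0.60 on array 2. The part of the scaling in these ratios was not tested.

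The scanner program's own values narrowed the gap for the brightest genes without closing it. For Cd79b its log ratio, with the knock-out on top, came to 0.92 and -1.21 on arrays 1 and 2, and the authors' deposited table gave 0.29 and -0.45. For Blnk these were 0.75 and -0.30 by the scanner program and 0.47 and -0.27 in the authors' deposited table. Plcg2 changed sign on array 1, to -0.18 by the scanner program and -0.21 in the authors' deposited table, and was then lower in the knock-out on both arrays, with -0.28 and -0.32 on array 2. The brighter Lyn probe also changed sign on array 1, to -0.14 by the scanner program and -0.03 in the authors' deposited table, with 0.13 and 0.06 on array 2. Blk and Pik3ap1 barely moved, with 0.32 and 0.16 for Blk and 0.43 and 0.21 for Pik3ap1 both by the scanner program and in the authors' deposited table. The program's error of a spot's log ratio, on the log2 scale, was between 0.20 and 0.23 for all 12 probes.

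**Figure D4:**
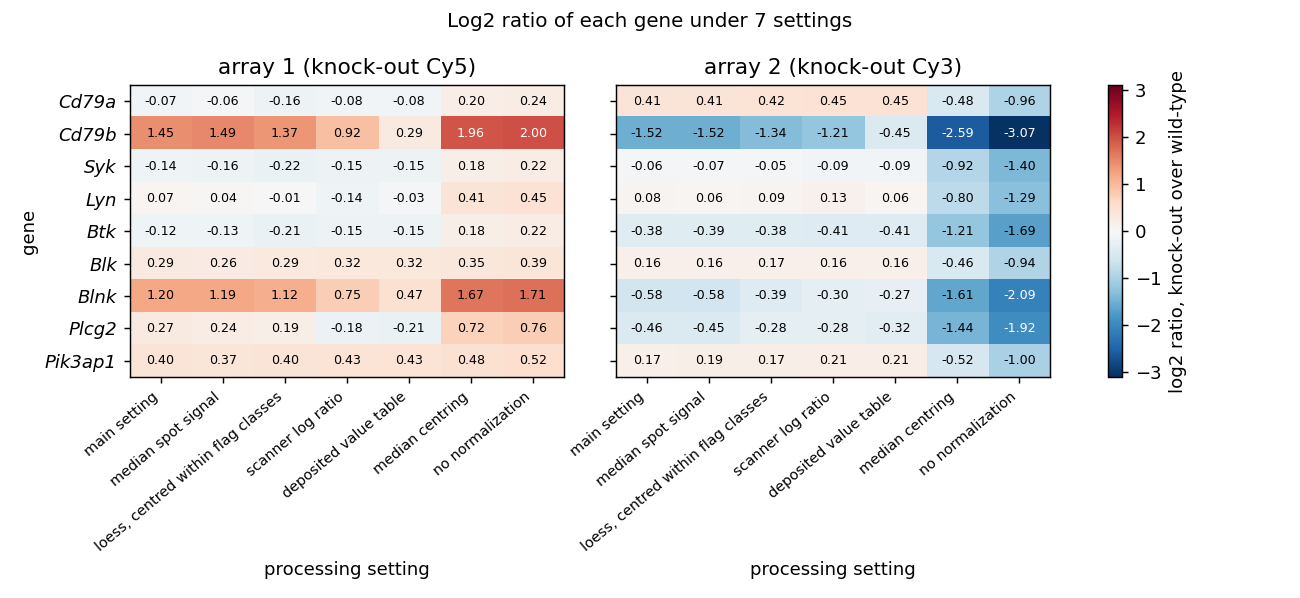
Log2 ratio, knock-out over wild-type, of each gene (rows) under 7 processing settings (columns), on array 1 (left) and array 2 (right); red is higher and blue lower in the knock-out. Blk and Pik3ap1 are alike from loess to the deposited value table, Cd79b shrinks from 1.45 to 0.29 on array 1 and from -1.52 to -0.45 on array 2, and in the settings without loess or the program's dye normalization all genes are negative on array 2.

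Other genes of the pathway were described by lists chosen with results of these data known. Of 121 tested, 0 passed the adjusted p of 0.05 by limma, where 0.102% of all genes did. At an unadjusted p of 0.05, 4 were higher and 10 lower, beside 3.15% and 5.97% of all genes. Their median log2 ratio was -0.02 beside -0.01 over all genes, with means from -0.69 to 0.62 and a lowest adjusted p of 0.240. On both arrays 30 were higher and 40 lower, 51 had opposite signs, and 45 had a scaled-up channel.

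Among receptor partners and the coreceptor (8 tested, median 0.10), the ectoenzyme gene Cd38 at 0.43 and Ms4a1, which encodes CD20, at 0.26 were the highest. The immunoglobulin heavy chain gene Ighm at -0.27 and Cd81, which encodes a tetraspanin, at -0.03 were the lowest. Both Ms4a1 and Ighm, scaled up in all 4 channels, followed the dye as Cd79b did, with 1.75 and -1.23 for Ms4a1 and 1.82 and -2.35 for Ighm on arrays 1 and 2. Of the Src and Tec family kinases and their regulators (10 tested, median -0.10), the adaptor gene Pag1 was at 0.21 and Lck at 0.16. Csk, which inhibits Src family kinases, was among the lowest at -0.38, but its other probe gave 0.38 and was higher on both arrays. Of the 17 adaptors and cytoskeletal effectors (median 0.09), Dapp1 was at 0.28 and Nck2 at 0.24, while the exchange factor genes Vav2 and Sos1 were at -0.69 and -0.36. Vav2 was lower on both arrays, at -0.91 and -0.48, with an adjusted p of 0.240 in limma, while its other probe had 0.20 and -0.13.

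Downstream of Pik3ap1, the PI3K and Akt arm (13 tested, median -0.05) was led by Pik3cg at 0.21. The B-cell PI3K catalytic subunit gene Pik3cd was at -0.44 and Mtor at -0.40. Downstream of Plcg2, the calcium and NFAT arm (17 tested, median -0.11) had the inositol trisphosphate receptor gene Itpr3 at 0.29 and the calcium channel gene Orai1 at 0.12, against the calcineurin subunit gene Ppp3r1 at -0.58 and Orai2 at -0.51. The other Ppp3r1 probes went the other way, at 0.15 and 0.38. In the protein kinase C and NF-kappaB arm (12 tested, median -0.10), Chuk was at 0.29, Bcl10 at 0.23, Prkcd at -0.31 and Ikbkb at -0.26. In the Ras and MAPK arm (15 tested, median -0.01), Map2k1 was at 0.29, Rasgrp1 at -0.19 and Map2k2 at -0.14. None of these arms had a member past the threshold, and the median over all genes was -0.01. The median of the PI3K and Akt arm was -0.16 on array 1 and 0.05 on array 2, and that of the Ras and MAPK arm was 0.03 and -0.06, so these had opposite signs. So did the medians of the receptor partners, 0.30 and -0.16, and of the Src and Tec family kinases, -0.18 and 0.03. The same held for the inhibitors of receptor signalling, -0.10 and 0.01, and the T-cell receptor counterparts, 0.16 and -0.01.

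Of 23 inhibitors of receptor signalling (median -0.05), the inhibitory receptor genes Lilrb4a and Cd72 were highest at 0.62 and 0.54, each with an adjusted p of 0.260 in limma. The ubiquitin ligase gene Cblb at -0.47 and Cd5 at -0.36 were lowest. Cd72 had 0.52 and 0.55 on the arrays. Of the T-cell receptor counterparts (8 tested, median 0.13), Plcg1 was at 0.30, Lcp2, which encodes the T-cell relative of Blnk, at 0.18, Grap2 at -0.44 and Cd3e at 0.03. These values are of the brightest probe, and another probe had a mean of the opposite sign for Ighm, Pag1, Dapp1, Nck2, Bcl10, Prkcd, Rasgrp1, Plcg1 and Cd8b1, as for Csk, Vav2 and Ppp3r1.

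**Figure D5:**
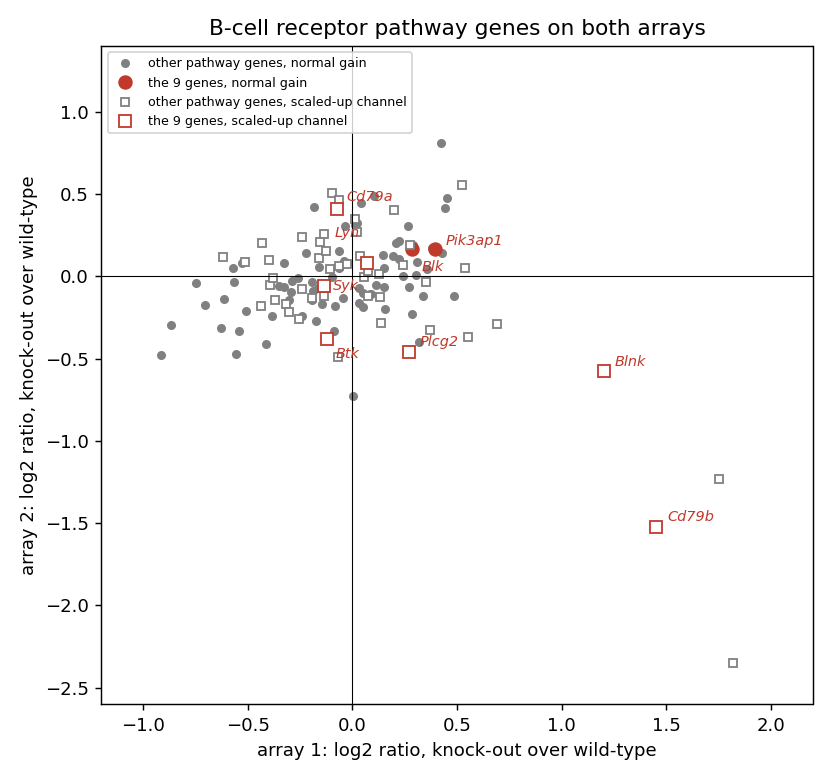
Log2 ratio, knock-out over wild-type, on array 1 (horizontal axis) and array 2 (vertical axis) of the 9 genes (red, named) and of the 121 other pathway genes (grey); squares have a scaled-up channel. Cd79b, Blnk, Ms4a1 and Ighm lie far to the lower right, while Blk and Pik3ap1 lie to the upper right close to the origin.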

How the data were processed

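The spot intensity values are scanner output as deposited, made by the authors with Agilent Feature Extraction 9.5.3.1, as the submitters' processing notes and the headers state; the labels' protocols give 20 ng of total RNA per condition amplified to labelled cRNA. The deposited log10 ratio of Cy5 over Cy3, its error (an other value) and its p-value per spot are that program's, background-subtracted and dye-normalized per the file headers. The deposited log2 table equalled that log ratio, with the knock-out on top, within 0.001 at 42512 and 42515 of 43379 spots, and the rest were low-gain spots, for which the authors' step is not stated. Column medians were 0.

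From the intensity values, normexp (offset 50) and loess (span 0.3, 4 iterations, control spots at weight 0) were run in limma 3.58.1 under R 4.3.3. Outlier spots were left out, spots of a probe averaged, and probes kept where a genotype was well above background on both arrays. The brightest probe stood for a gene. Levels are per channel after loess and Aquantile. Probes were named by RefSeq accession (24375 of 41174), symbol (6301) or synonym (2426), and 8072 kept the file's name. Ratios were fitted with lmFit and eBayes, +1 or -1 by dye orientation, which leaves 1 residual and 6.19 prior degrees of freedom. The p-value of each gene is two-sided, with Benjamini-Hochberg adjustment over all genes. The fit was tested on simulated data. SE and intervals measure the spread between the 2 arrays, which share a slide, moderated over genes, not that between the 12 sorted samples. Pool pair and dye orientation change together between the arrays. No dye term was fitted, so a dye effect of a gene enters this spread with that of the pools.

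The 9 genes and the lists were chosen with earlier results of these data known. Beside the 9 genes and Ccr7, the rule named genes past the threshold and the 2 highest and 2 lowest of each pathway list, and the 2 brightest of each list of other cells. Values of some genes it named are not reported here. Ms4a1, Ighm, Pax5, Adgre1 and the dimmer Cd8b1 probe on single arrays were added after their values were seen.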

Additional observations from a re-analysis of the deposited data

How the results depend on the processing

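The 2 arrays limit every value, and most of the 9 genes are read through scaled-up channels. None of the 9 genes and 0 of the 121 other pathway genes passed in any of 14 other settings. Over all genes the 18 calls were 0 with the scanner program's log ratio, no background subtraction, the deposited value table, no within-array normalization, the mean of all probes and separate channels with no replicate block. They were 4 with median centring, 9 with the median spot signal, 9 with both channels above background, 31 with every probe tested on its own, 73 with an intensity trend and robust prior and 98 without genes with a low-gain channel, a setting that leaves 2 of the 9 genes. Median centring moved the median of all genes to -0.17 and turned Cd79a to -0.14, Lyn to -0.20, Blk to -0.0584 and Pik3ap1 to -0.0188. With no within-array normalization that median was -0.39, and Cd79a was -0.36, Lyn -0.42, Blk -0.28, Blnk -0.19 and Pik3ap1 -0.24. The scanner program's log ratio turned Lyn to -0.00245, and centring within flag classes turned Cd79b to 0.0157. Syk, Btk and Plcg2 kept a mean below 0 in the 13 other settings that held all 9 genes. Changes of filter, prior or test alone, and for these genes the mean of all probes, left the ratios as they were. Only the rest of the settings could have moved their signs. Leaving out an array leaves no residual degrees of freedom, so counts of calls have no value there; the means of the 9 genes then ran from -1.52 to 1.45.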
